A study of Mus musculus with 3 samples.

Results

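Esm1-positive general capillary cells were the gated lung endothelial cells (ECs) in which at least 3 transcripts of Esm1 were counted. A transcript is counted by its unique molecular identifier (UMI). A barcode entered the set when it had 1000 to 5000 detected genes, under 20% mitochondrial UMIs, at least 2 UMIs of Pecam1 and Cdh5 together, and at least 3 of Gpihbp1, Kit, Plvap and Aplnr together. It also had fewer than 3 UMIs of the aerocyte genes Ednrb, Fibin, Tbx2, Chst1 and Apln, and fewer than 3 of the vein genes Slc6a2, Car8, Prss23 and Amigo2. The rule found 180 cells among 21094 gated general capillary cells and 31947 quality-filtered barcodes. Of these 180 cells, 54 came from control mice, 68 from mice of the 6 h and 58 from mice of the 30 h melanoma group. The reference consisted of the 20293 cells that passed the same gates with 0 Esm1 UMIs (7355, 7322 and 5616 in the same order).

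The cells came from lungs of wild-type C57BL/6 mice, male and 8 to 10 weeks old. Mice received PBS and were killed at 6 h (control), or received 200000 B16-F10 cells, a mouse melanoma line, through the tail vein and were killed at 6 h or 30 h. Tissue was digested with collagenase for 1 h at 37 °C, and Pecam1-positive, Ptprc-negative cells were sorted, and labelled melanoma cells were also collected from melanoma-injected lungs, although the labels list melanoma cells for the 6 h library alone. Each treatment is 1 library of pooled mice (2 per treatment by the labels and 3 by the methods), so treatments have no replicates, and pool, library and treatment cannot be told apart. For the comparison of Esm1-positive with Esm1-zero cells, the 3 libraries served as blocks, which takes out differences in level between libraries. Its p-values measure only how the difference between the classes varied over these libraries.

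Esm1 encodes endocan, a secreted proteoglycan that is induced by vascular endothelial growth factor (VEGF) and marks tip cells, the leading cells of a vessel sprout. Tip cells also carry Dll4, the Notch ligand that restrains their neighbours, and Cxcr4, the receptor for the chemokine Cxcl12. In the lung, general capillary cells (gCaps) hold the regenerative capacity of the capillary bed, while aerocytes (aCaps) line the gas-exchange surface. Arterial ECs use several of the same genes as tip cells, among them Efnb2, Dll4 and Cxcr4.

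Esm1-positive cells were slightly deeper than the reference. Median UMIs per cell were 7839.5, 8675 and 9106.5 in Esm1-positive cells of the control, 6 h and 30 h libraries, against 7179, 7667 and 8108.5 in Esm1-zero cells. The summed counts differed far more, because of cell number: 446773 to 645957 UMIs per library for the Esm1-positive class and 45776429 to 57151476 for the reference. Pairs of libraries shared 23 to 39 quality-filtered barcodes, and no Esm1-positive barcode was Esm1-positive in more than 1 library. Removal of predicted doublets dropped 1, 4 and 1 Esm1-positive cells.

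Esm1 itself was used by the rule and is given as a description. Esm1 stood at 945, 726 and 735 CPM (counts scaled to the summed UMIs of the class in that library) in Esm1-positive cells of the control, 6 h and 30 h libraries. The median Esm1-positive cell had 5, 4 and 5 Esm1 UMIs, the highest had 35, 29 and 51, and 36 of the 180 cells had 10 or more. Just inside the threshold lay 45 cells with exactly 3 UMIs, and just outside lay 145 cells with 2 and 476 with 1. In droplets with few UMIs, which sample free RNA, Esm1 stood at 9.45, 11.3 and 10.0 CPM. Among aerocyte-gated cells 0 of 764, 0 of 707 and 1 of 902 had 3 or more Esm1 UMIs. The share was higher in vein-gated cells (7 of 1286, 3 of 816 and 7 of 931, or 0.544%, 0.368% and 0.752%) and in all cells with at least 3 aerocyte UMIs (0.467%, 0.498% and 0.368%). Of barcodes with 300 or more genes outside the general capillary gates, 0.607%, 0.536% and 0.444% had 3 or more, so such cells were also found outside the gates. Among these were 30, 26 and 19 barcodes with over 5000 genes, so this share does not measure other cell types alone. The upper limit of 5000 genes set apart 75 of the 301 barcodes that had at least 3 Esm1 UMIs and 300 or more genes, so the deepest Esm1-bearing barcodes were not members.

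The label came with 4 further markers of these cells, which were proposed with earlier results of these data in view. Their levels and p-values are therefore a description and no independent check of the label. All 4 were higher in Esm1-positive cells, and in each library. Cxcr4 (chromosome 1, 128588199 to 128592293, minus strand; all positions are from GENCODE M21 on GRCm38) stood at 150, 136 and 234 CPM in Esm1-positive cells of the control, 6 h and 30 h libraries and at 20.5, 14.0 and 17.7 CPM in Esm1-zero cells. The ranges lay far apart, with a log2 difference of 3.31 (SE 0.16, adjusted p = 5.6e-17, edgeR quasi-likelihood test with Benjamini-Hochberg adjustment, as for all adjusted p-values here). At least 1 Cxcr4 UMI was found in 61.1% of Esm1-positive cells (110 of 180, median 8484.5 UMIs), 9.59% of Esm1-zero cells (median 7619 UMIs) and 2.11% of aerocytes (median 9867 UMIs). With cells thinned to 3000 UMIs and shallower cells left out, the shares were 36.7% of 177, 4.53% of 18624 and 0.911% of 2196 cells, so the order was kept at equal depth. In droplets that sample free RNA Cxcr4 stood at 19.5, 15.4 and 34.5 CPM, so the level of the Esm1-zero cells was near or below that of free RNA, and only the Esm1-positive level was well above it in each library.

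Slit3, a secreted guidance cue (chromosome 11, 35121224 to 35708507, plus strand), stood at 154, 226 and 148 CPM against 28.4, 39.9 and 27.5 CPM (log2 difference 2.45, SE 0.13, adjusted p = 3.3e-16). Efnb2, the arterial ephrin ligand (chromosome 8, 8617434 to 8661242, minus strand), stood at 1083, 1067 and 1517 CPM against 542, 519 and 606 CPM (log2 difference 1.12, SE 0.085, adjusted p = 8.1e-12). Mctp1, a calcium-binding membrane protein (chromosome 13, 76384535 to 77031810, plus strand), stood at 909, 560 and 573 CPM against 428, 244 and 227 CPM (log2 difference 1.20, SE 0.091, adjusted p = 8.5e-12). The class ranges did not overlap for these 4 markers, as for 709 (8.15%) of all 8703 tested genes that lay higher and 659 (7.57%) that lay lower in Esm1-positive cells. The contrast was largest for Cxcr4 and smallest for Efnb2. Mctp1 also differed between libraries, highest in the control library in both classes, and without the library block its adjusted p was 0.11. Among the 180 cells, 55 had a UMI of all 4 markers, 77 of 3, 37 of 2, 10 of 1 and 1 cell of none, against 1.80% of Esm1-zero cells with all 4.

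**Figure D1:**
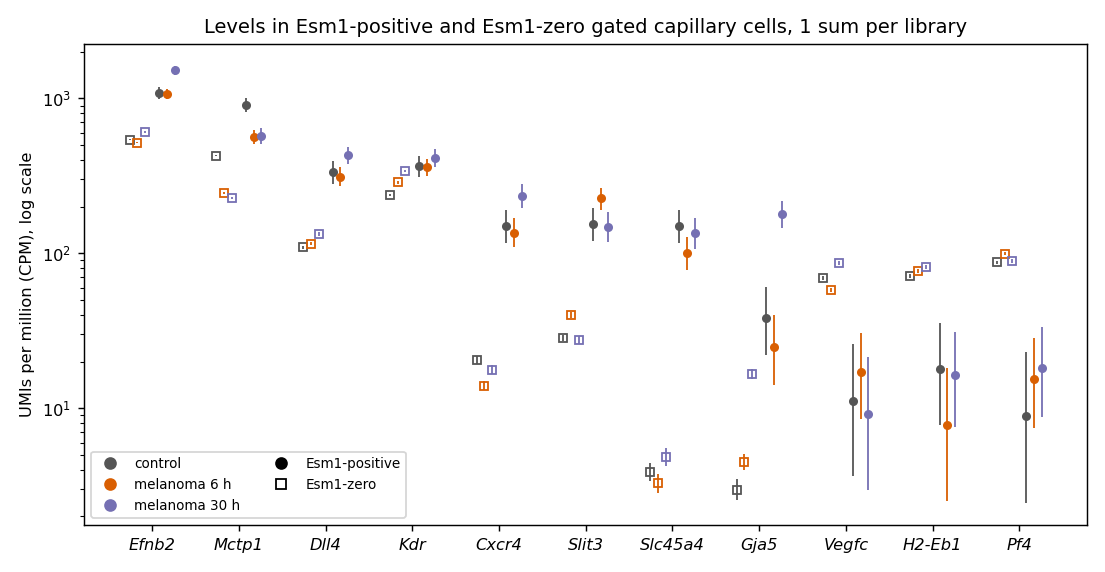
Levels of the markers and of other named genes in Esm1-positive and Esm1-zero cells, in CPM of the summed UMIs on a log axis, with 1 point per library and class and 95% Poisson intervals that cover counting error only. Cxcr4 lies between 136 and 234 CPM in Esm1-positive cells and between 14.0 and 20.5 CPM in Esm1-zero cells, with no overlap.

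Across 8703 tested genes, 414 (4.76%) were higher and 357 (4.1%) lower in Esm1-positive than in Esm1-zero cells, gate genes left out, 771 (8.86%) in all. The direction was the same in all 3 libraries for 754 of these genes and for 37.1% of all tested genes, and the test, blocked on the same libraries, itself selects for this. A change of at least 2-fold was seen for 140 of the higher and 89 of the lower genes. Of the 414 higher genes 408 had UMIs in 10 or more Esm1-positive cells, and 11 had at least 33.3% of their UMIs in 1 cell. In an alternative added after seeing the data, the highest count of each gene in 1 cell was subtracted from its Esm1-positive sum in each library. There 343 of the 414 were called again. The subtraction was made for all genes at once and lowered the class totals. Its log2 differences can therefore come out larger than with that cell left out. Without the 30 h library the numbers were 232 higher and 192 lower, and without the library block 79 and 39.

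Slc45a4, a sugar transporter of the solute carrier family (chromosome 15, 73577424 to 73645762, minus strand) was found in 64 of 180 Esm1-positive cells (35.6%), in 1.77% of Esm1-zero cells and in 1.60% of aerocytes. It stood at 150, 101 and 135 CPM against 3.87, 3.27 and 4.83 CPM in Esm1-zero cells (log2 difference 5.0, SE 0.26, adjusted p = 4.8e-16), with 4.01, 7.21 and 6.60 CPM in free RNA. The gap junction genes Gja5 and Gja1 were higher as well. Gja5 stood at 38.1, 24.8 and 179 CPM against 2.97, 4.50 and 16.6 CPM (log2 difference 3.22, adjusted p = 1.4e-10), highest at 30 h in both classes, and without the library block its adjusted p was 0.16. Gja1 stood at 33.6, 32.5 and 84.1 CPM against 2.94, 4.76 and 5.46 CPM (log2 difference 3.43, adjusted p = 6.3e-09).

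The growth factor Tgfb2 was at 101, 55.7 and 31.1 CPM in Esm1-positive cells and at 4.13, 4.79 and 5.0 CPM in Esm1-zero cells (log2 difference 3.66). Esr2, which encodes oestrogen receptor beta, was at 89.5, 32.5 and 69.5 CPM against 4.74, 3.76 and 8.08 CPM (log2 difference 3.49). Scgb3a1, a secretoglobin, was at 110, 113 and 36.6 CPM against at most 8.61 CPM (log2 difference 3.43). Free RNA held 42.7, 20.6 and 29.1 CPM of Scgb3a1, and the counting interval of the 30 h Esm1-positive value (22.3 to 56.5 CPM) included the free RNA level of that library. For each of these genes the Esm1-positive range lay above the Esm1-zero range. In 1 cell each lay 51.1% of the control and 66.7% of the 6 h Tgfb2 UMIs and 55.1% of the control Scgb3a1 UMIs. With the highest count of each gene subtracted in each library, the log2 differences were 2.85 (adjusted p = 5.2e-06) and 2.94 (adjusted p = 9.2e-08). The class totals were lowered as well, which can raise these values. The other genes among the 15 largest rises with the same direction in all 3 libraries were Galnt15, Olfm2, Gm35533, AU021092, Slc10a6, Sncaip and Ablim3, with log2 differences between 2.80 and 4.20. Of these, Galnt15, Olfm2 and AU021092 had UMIs in 19, 13 and 10 Esm1-positive cells, and 1 cell of each library held 43.5% to 66.7%, 34.5% to 60.0% and 46.7% to 60.0% of them. With the counts of those cells subtracted these 3 genes were too low to be tested. AU021092 in Esm1-positive cells at 6 h (7.74 CPM) was not above its level in free RNA (7.89 CPM). Apart from Cxcr4, all of the 15 largest rises averaged under 10 CPM in Esm1-zero cells, with Sncaip the highest at 9.70 CPM. These genes passed the filter of 10 CPM only through their level in Esm1-positive cells. The filter thus set the direction of their difference, and their p-values are no independent support for it.

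The largest difference was that of Gzmk, the gene of the lymphocyte protease granzyme K, at 175, 105 and 69.5 CPM against 0.110, 0.35 and 0.0655 CPM (log2 difference 9.34, SE 0.62, adjusted p = 2.2e-13). Its annotated span (chromosome 13, 113171608 to 113225908, minus strand) contains that of Esm1 (113209659 to 113218098, plus strand), with 0 exonic bases shared. Among all quality-filtered barcodes, Gzmk UMIs were found in 75 of 223 (33.6%) with at least 3 Esm1 UMIs and in 25 of 30955 with 0. UMIs of the leukocyte and lymphocyte genes Ptprc, Cd3e and Nkg7 in these Gzmk-bearing barcodes came almost all from the 6 h library. It had 54 UMIs in those with at least 3 Esm1 UMIs and 85 in those with 0, against 0 or 1 in the other libraries. These barcodes include some outside the gates. In the 6 h Esm1-positive cells, the 12 leukocyte markers together stood at 52.6 CPM of 645957 UMIs, with 0 UMIs of Nkg7. The part of such RNA in the Gzmk counts was not tested. In each library the share of barcodes with Gzmk followed the Esm1 UMIs used by the rule. Whether the Gzmk counts come from Gzmk transcripts or from reads of the Esm1 locus was not tested. The labels and the deposited counts of each library name Cell Ranger 7.2.0, while the methods name an older version. Whether intronic reads were counted is not given in the sources used here. Gpx8, 163249 bases before the start of Esm1 and chosen after its values were seen, was also higher, at 29.1, 29.4 and 18.3 CPM against 4.13, 3.71 and 4.54 CPM (log2 difference 2.63, adjusted p = 2.5e-05). Gpx8 passed the filter of 10 CPM only through its level in Esm1-positive cells. The filter thus set the direction of its difference, and its p-value is no independent support for it. The tested genes Mtrex and Dhx29, further away on the same side, did not pass the test (log2 differences −0.03 and 0.22, adjusted p = 0.97 and 0.76).

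Artery genes formed the group with the most calls. Of 26 tested artery genes 19 were higher and 2 lower, with a median log2 difference of 0.99 against −0.00 over all tested genes. Over all tested genes 4.76% were higher and 4.1% lower, the background for the counts of every list given here. The 19 include the markers Efnb2 and Mctp1, which were proposed with earlier results of these data in view. The lists were also chosen with earlier results of these data known. The counts of every list given here are therefore a description and no independent check. Besides Gja5 and Efnb2, the higher genes included Adgrg6, an adhesion receptor (222, 122 and 245 CPM against 28.6, 26.9 and 38.9), and Mecom, a transcription factor of arterial ECs (184, 201 and 241 CPM against 35.1, 37.6 and 49.3). Mgst1, a glutathione transferase, was at 107, 80.5 and 34.8 CPM against 17.8, 20.1 and 13.0 CPM. Against the direction of the list, Sox17, an arterial transcription factor, was at 91.8, 146 and 134 CPM against 290, 285 and 300 CPM (log2 difference −1.23, adjusted p = 6.4e-09), and the arterial connexin Gja4 was lower by 0.43 on the log2 scale; Sox17 and Gja4 were picked out after their values were seen, as the list's exceptions. The cells therefore passed the general capillary gates but carried much of the arterial list, and they are called Esm1-positive cells here after their rule.

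Tip cell genes were less uniform, with 9 of 18 tested genes higher, 3 lower and a median of 0.37. The 9 include the markers Cxcr4 and Efnb2, and Efnb2, Dll4 and Unc5b are counted in the artery list as well. Dll4 was at 334, 313 and 428 CPM against 109, 116 and 133 CPM (log2 difference 1.57, SE 0.11, adjusted p = 3.3e-13). Igfbp3 had a log2 difference of 3.40 but UMIs in 10 Esm1-positive cells, and Ramp3, an adrenomedullin receptor subunit, was lower (6.71, 7.74 and 1.83 CPM against 37.5, 24.5 and 29.0; log2 difference −2.43). Angpt2, Col4a1 and Col4a2, well-known tip cell genes named here after their values were seen, did not pass the test (log2 differences 0.77, −0.03 and −0.03, adjusted p = 0.079, 0.93 and 0.94).

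Of 12 tested VEGF and angiopoietin genes 5 were higher (Flt1, Flt4, Nrp1, Ptprb and Kdr) and 1 lower, with a median of 0.30. Flt1, the decoy VEGF receptor, was at 1632, 1522 and 1339 CPM against 997, 1174 and 946 CPM (log2 difference 0.52, adjusted p = 1.9e-05). Kdr, the main signalling receptor, was at 367, 359 and 412 CPM against 238, 287 and 341 CPM (log2 difference 0.39, adjusted p = 0.0090), a call lost without the library block (adjusted p = 0.54), without the control library (0.23) and without the 30 h library (0.056). The lymphatic growth factor Vegfc was the member that fell, at 11.2, 17.0 and 9.15 CPM against 69.2, 57.9 and 87.1 CPM (log2 difference −2.47, adjusted p = 2.9e-09), while Vegfa did not pass the test (0.21, adjusted p = 0.27). Of 13 tested VEGF-induced genes 3 were higher and 2 lower (median 0.06).

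In the Notch pathway, the receptor Notch1 (416, 350 and 507 CPM against 213, 230 and 249; log2 difference 0.86) and the target Hey1 (569, 328 and 562 CPM against 320, 240 and 236; 0.85) were higher together with Dll4. The other genes moved less: 4 of 16 tested Notch genes were higher and 1 was lower, with a median of 0.15. Dll4, Notch1 and Hey1 are counted in the artery list as well, as is Cxcl12. In the Cxcl12 axis, the ligand Cxcl12 was at 736, 488 and 2353 CPM against 351, 355 and 1263 CPM (log2 difference 0.81, adjusted p = 9.3e-08). Its scavenging receptor Ackr3 was lower, at 44.8, 41.8 and 36.6 CPM against 81.2, 100 and 105 CPM (log2 difference −1.25). These are sums over the class and do not show that the same cells carried both Cxcr4 and Cxcl12. The classes did not overlap in Ackr3, while the control and 6 h Esm1-positive values of Cxcl12 lay below its 30 h Esm1-zero value.

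**Figure D2:**
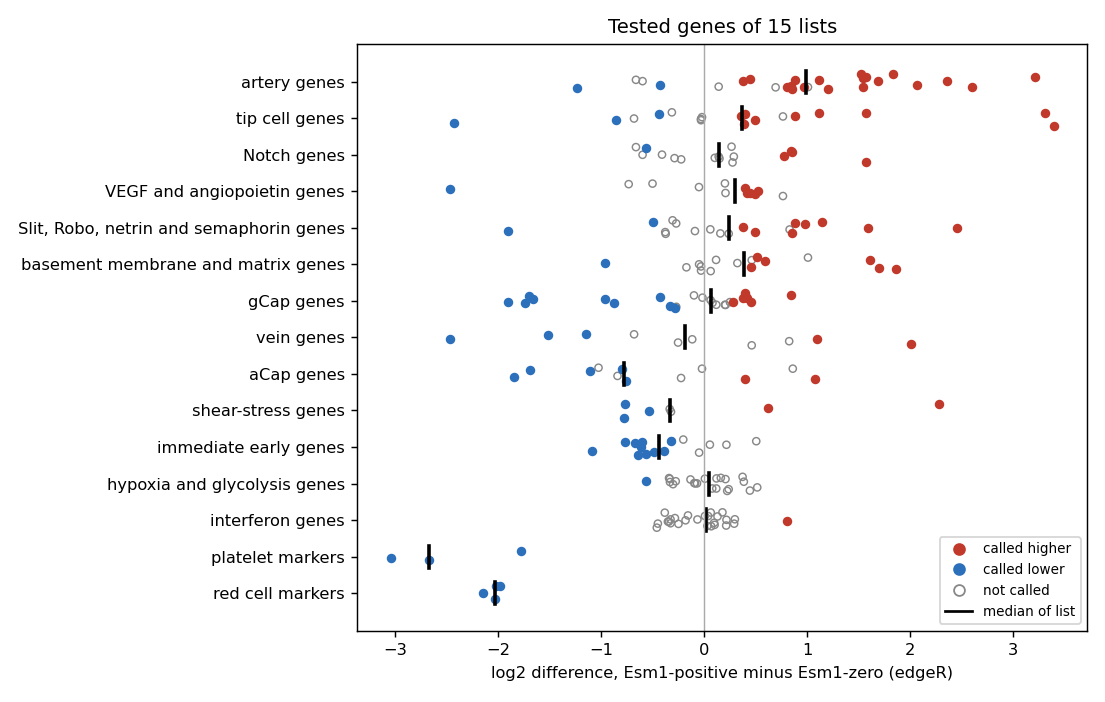
Log2 differences of Esm1-positive minus Esm1-zero cells for the tested genes of the lists shown, with 1 point per gene and a bar at the list's median. The artery list has its median at 0.99, the immediate early list at −0.44, and the median over all 8703 tested genes is −0.00.

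General capillary genes split in both directions, with 7 of 25 tested genes higher, 9 lower and a median of 0.06. The calls of Hey1, Sema3g and Gja4 are counted in the artery list as well. The largest changes were falls. Sema3c, a secreted semaphorin, was at 293, 509 and 649 CPM against 1904, 1547 and 1937 CPM (log2 difference −1.91, SE 0.12, adjusted p = 9.3e-14). Glp1r, the receptor for the incretin GLP-1, was at 163, 102 and 121 CPM against 397, 353 and 484 CPM (log2 difference −1.70, adjusted p = 6.9e-12). The transcription factor Sox11 and the neurotrophin receptor Ntrk2 were lower by 1.74 and 1.66 on the log2 scale. None of the 3 Esm1-positive values of Sema3c or Glp1r reached the lowest Esm1-zero value.

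Of 12 tested aCap genes 2 were higher and 5 lower (median −0.78), although gated aerocytes had been left out of both classes. Car4, a carbonic anhydrase of the alveolar capillary surface, was at 107, 86.7 and 87.8 CPM against 204, 177 and 222 CPM (log2 difference −1.11). Prx, which encodes periaxin, was at 40.3, 44.9 and 71.3 CPM against 146, 151 and 204 CPM (log2 difference −1.69), whereas Igfbp7, a secreted matrix protein also made by vessels outside the capillary bed, was higher (884, 836 and 646 CPM against 353, 408 and 352; log2 difference 1.07). Vein genes had 2 of 10 higher and 3 lower (median −0.18). Lyve1 and Flt4, the 2 tested lymphatic genes, were higher by 0.99 and 0.50 on the log2 scale, and Ccl21a, kept out of the list because the files give its symbol to 2 near-identical genes, was lower (log2 difference −4.01 for the tested copy, 0, 3.10 and 5.49 CPM against 46.3, 54.7 and 44.0).

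Genes of guidance and matrix were more often higher than lower. Of 19 tested Slit, Robo, netrin and semaphorin genes 8 were higher, the marker Slit3 among them, and 2 lower (median 0.24). The higher genes Unc5b and Sema3g are counted in the artery list as well. Over all tested genes 4.76% were higher and 4.1% lower. Besides Slit3, Ntn4, a matrix netrin, was at 217, 135 and 201 CPM against 54.4, 57.1 and 68.0 CPM (log2 difference 1.59), and the semaphorin receptor Plxnd1 was higher by 1.15. The ephrin ligand Efna1 was at 327, 274 and 318 CPM against 140, 114 and 108 CPM (log2 difference 1.35). Of 6 tested ephrin and Eph genes 3 were higher, the marker Efnb2 among them, and 1 lower.

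Of 16 tested basement membrane and matrix genes 6 were higher and 1 lower (median 0.39). Sparcl1, a matricellular protein, was at 445, 257 and 322 CPM against 111, 83.9 and 136 CPM (log2 difference 1.61), and Lama4 and Col15a1, a laminin and a collagen of the vessel wall, were higher by 1.70 and 1.87 at lower levels. Hmcn1, a large matrix protein that is also in the gCap list, fell by 0.97. Of 20 tested BMP and TGF-beta genes 6 were higher and 1 lower (median 0.20), among them Smad6, the inhibitory Smad, at 1162, 978 and 993 CPM against 626, 745 and 461 CPM (log2 difference 0.79).

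Immediate early genes were mostly lower, and genes of flow sensing were mixed. Thbd, the anticoagulant thrombomodulin, was at 573, 489 and 510 CPM against 897, 766 and 1026 CPM, and the flow-induced factor Klf4 was at 584, 666 and 554 CPM against 808, 1162 and 1100 CPM (log2 difference −0.77 for each). Of 7 tested shear-stress genes 3 were lower and 2, Edn1 among them, were higher (median −0.33). Of 16 tested immediate early genes 10 were lower and 0 higher (median −0.44), for example Ier3 at 499, 768 and 221 CPM against 905, 1465 and 652 CPM (log2 difference −1.09) and Egr1 at 325, 712 and 214 CPM against 528, 1035 and 348 CPM (−0.64). Ier3 and Egr1 also differed between libraries, with the highest values at 6 h in both classes. Their class ranges therefore overlapped between libraries, while the Esm1-positive value was the lower one within each library. Of 14 immediate early genes with at least 20 CPM, 12 were higher at 6 h than in control in Esm1-positive cells and 14 in Esm1-zero cells.

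Other programmes had calls in both directions or few calls. Their counts are to be set against 4.76% higher and 4.1% lower over all tested genes, and lists near these shares say nothing particular about their genes. Among 40 tested genes that the study used as markers of reactive capillaries (rCaps), a list chosen on these samples, 6 were higher and 5 lower (median 0.04). The higher genes included Osmr, the oncostatin M receptor (177, 263 and 132 CPM against 72.8, 105 and 51.4; log2 difference 1.31), Syt15 (1.91) and Inhbb, the activin B subunit (1.48), while Pim3 was lower (−0.56, adjusted p = 0.016) and Bcl3 did not pass the test (−0.20, adjusted p = 0.75). Of 22 tested hypoxia and glycolysis genes 0 were higher and 1 was lower, and of 26 interferon genes 1 was higher and 0 lower. Of 16 heat shock genes 1, the small heat shock protein Hspb1, was higher (log2 difference 1.08), and of 12 junction genes 1 was higher and 3 were lower. Of 6 lipid uptake genes 2 were higher, Lpl by 0.46 and Fabp4 with 95.4% of its control UMIs in 1 cell, and of 15 NF-kB genes 4 were higher and 1 was lower. All UMIs of the NF-kB gene Sele in Esm1-positive cells came from 1 cell. Vcam1, Fabp4 and the interferon gene Ifi44 lost their calls when the highest count of each gene was subtracted in each library (adjusted p = 0.32, 0.18 and 0.26). Of 24 cell cycle genes 10 had no UMI in any Esm1-positive cell, and of the 5 tested 0 were higher and 1 was lower.

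Markers of other cells were lower or did not pass the test. All 3 tested platelet markers and all 4 tested red cell markers were lower, as was the 1 tested leukocyte marker, Lyz2, and 2 of 6 epithelial markers. Summed over the list, platelet markers stood at 15.7, 29.4 and 71.3 CPM in Esm1-positive cells of the control, 6 h and 30 h libraries and at 206, 226 and 198 CPM in Esm1-zero cells, and leukocyte markers at 22.4, 52.6 and 22.0 CPM against 69.2, 91.8 and 53.8 CPM. Red cell markers were at 1023, 579 and 102 CPM against 3477, 2258 and 847 CPM. None of the tested pericyte (4), smooth muscle (2) and fibroblast (3) markers passed the test. Fibroblast markers had a median log2 difference of 0.71, with summed levels of 184, 65.0 and 104 CPM in Esm1-positive and 74.5, 55.8 and 105 CPM in Esm1-zero cells. Pericyte markers were at 85.1, 86.7 and 101 CPM against 116, 110 and 143 CPM, and no melanoma marker was high enough to be tested. Less platelet, leukocyte and red cell RNA thus accompanied the other differences, and its part in them was not tested. The platelet genes Pf4 and Ppbp and the class II gene H2-Eb1 (17.9, 7.74 and 16.5 CPM against 71.0, 76.5 and 81.2) were among the 10 largest falls with the same direction in all 3 libraries, which also held Gm30382, Gm49767, Kcnh1 and Gm12840.

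The arterial share was then measured cell by cell. A cell was counted as artery-marked when it had 3 or more UMIs of Gja5, Bmx, Mecom, Adgrg6 and Thsd7a together. All of these are among the 19 artery genes called higher above, and the lower genes Sox17 and Gja4 are not used. A larger artery-marked share in Esm1-positive cells thus describes those calls per cell and is no independent check of them. Artery-marked cells made up 37.0%, 38.2% and 51.7% of Esm1-positive cells in the control, 6 h and 30 h libraries and 6.97%, 7.47% and 9.12% of Esm1-zero cells, so 76 of the 180 cells (42.2%) were artery-marked. With all artery-marked cells removed from both classes, 207 genes (2.39%) were higher and 200 (2.31%) lower, of which 189 and 185 were among those called over all cells. Cxcr4 (3.37), Slit3 (2.21), Efnb2 (1.02), Mctp1 (1.08), Dll4 (1.61), Sema3c (−1.49) and Glp1r (−1.24) all kept their calls, whereas Cxcl12 had a log2 difference of 0.06 (adjusted p = 0.91), the Notch list had a median of −0.00 and Ntn4 did not pass the test (0.60, adjusted p = 0.13).

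Within artery-marked cells, Esm1-positive and Esm1-zero cells could be compared directly, a comparison added after seeing the data. Here 66 genes (0.75%) were higher and 44 (0.5%) lower, and 65 and 36 of these were among those called over all cells. As with artery-marked cells removed, the cells compared are a part of all cells, so this overlap is partly built in. Cxcr4 (2.29), Slit3 (1.50), Slc45a4 (3.07), Dll4 (0.99) and Efnb2 (0.52, adjusted p = 0.026) were higher and Sema3c (−2.08) and Glp1r (−1.58) lower in Esm1-positive cells. Mctp1 (0.32, adjusted p = 0.44) did not pass the test, and Cxcl12 had a log2 difference of −0.15.

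Among the Esm1-positive cells themselves, artery-marked and other cells had similar Esm1 levels (mean of 3 libraries 805 and 810 CPM) and similar Dll4 levels (372 and 344 CPM). Other genes differed between them, as they did between artery-marked and other Esm1-zero cells. Slc45a4 was at 304, 148 and 215 CPM in the artery-marked cells and at 41.9, 63.6 and 40.3 CPM in the other cells, and Esr2 at 206, 70.4 and 117 CPM against 7.62, 2.76 and 12.1 CPM. Cxcl12 was at 1480, 675 and 3439 CPM against 213, 340 and 1047 CPM, with the artery-marked cells higher within each library but the ranges overlapping between libraries. In artery-marked and other Esm1-zero cells, Slc45a4 was at 28.1, 18.6 and 32.0 CPM against 1.72, 1.84 and 1.61 CPM and Esr2 at 50.3, 39.3 and 74.4 CPM against 0.680, 0.440 and 0.244 CPM. Cxcl12 was at 1125, 1089 and 4080.3 CPM against 283, 286 and 929.8 CPM there, the same direction in each library. The 180 cells were a mixture with respect to arterial genes.

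The markers were followed over the number of Esm1 UMIs per cell, as a description of means over the 3 libraries. Cxcr4 stood at 17.4 CPM in cells with 0 Esm1 UMIs, 64.1 with 1, 76.9 with 2, 98.4 with 3, 169 with 4 or 5, 198 with 6 to 9 (SD 75.5) and 256 with 10 or more (SD 164). Dll4 stood at 119, 223, 260, 341, 381, 338 and 374 CPM over the same bins, and Glp1r at 411, 249, 230, 151, 140, 117 and 98.6 CPM. The means of Glp1r were lower in each successive bin, and those of Cxcr4 higher. In the top bin, however, 1 cell of the 30 h library held 19 of the 39 Cxcr4 UMIs of that library, and in the 6 h library Cxcr4 had no such order from 3 Esm1 UMIs upward (128.5, 168, 128 and 119 CPM). With the cell with the most Cxcr4 UMIs left out of each bin and library, an alternative added after seeing the data, the means from 3 Esm1 UMIs upward were 80.3, 140, 154 and 180.4 CPM, and those of the 6 h library 102, 138, 92.6 and 101 CPM. Dll4 and Efnb2 (556, 962, 1103, 1201, 1238, 1252 and 1246 CPM) changed little from 3 UMIs upward. Slit3 had no such order from 3 UMIs upward (153, 245, 98.3 and 206 CPM), and Mctp1 stood at 299, 530, 713, 772, 715, 732 and 503 CPM, lower in the top bin than with 2 UMIs. The artery-marked share was 7.75%, 24.0%, 31.7%, 28.9%, 46.3%, 42.2% and 52.8% over these bins, not higher in each successive one. The 621 cells with 1 or 2 Esm1 UMIs differed from Esm1-zero cells in 381 genes (4.39%) that were higher and 404 (4.65%) that were lower. Cells below the threshold of 3 thus also differed from Esm1-zero cells. Of these genes 265 and 259 were shared with the Esm1-positive cells. Both comparisons used the same Esm1-zero cells, so part of this overlap is built in.

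**Figure D3:**
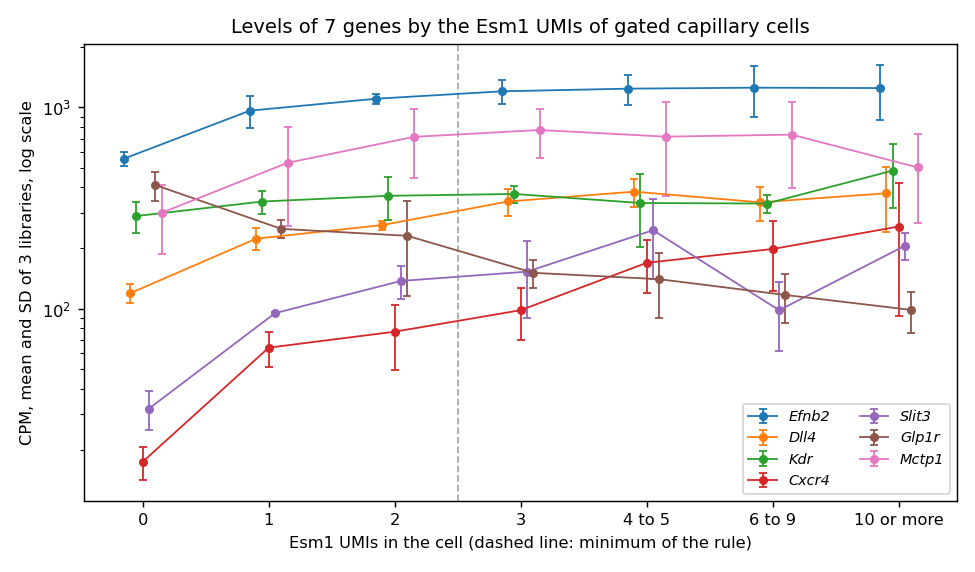
Mean CPM of Efnb2, Dll4, Kdr, Cxcr4, Slit3, Glp1r and Mctp1 over cells binned by their Esm1 UMIs, with the SD over 3 libraries. The mean of Cxcr4 goes from 17.4 CPM at 0 UMIs to 256 CPM (SD 164) at 10 or more, and that of Glp1r from 411 to 98.6 CPM.

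The share of Esm1-positive cells among gated general capillary cells was 0.712% for control (95% exact binomial interval from 0.535 to 0.928), 0.891% for the 6 h group (from 0.693 to 1.13) and 0.986% for the 30 h group (from 0.750 to 1.27). The intervals of the shares overlapped, and the differences from control were 0.179 percentage points at 6 h (interval −0.114 to 0.475) and 0.274 for the later time (interval −0.0461 to 0.611), with intervals that cover counting error only. These differences moved with the setting. The later one was 0.614 (interval 0.185 to 1.06) from 2 Esm1 UMIs upward and 0.0448 (interval −0.217 to 0.323) without artery-marked cells. The 6 h one was −0.0423 (interval −0.269 to 0.183) from 5 Esm1 UMIs upward. Thinning to 3000 UMIs left out 704, 592 and 409 shallower gated cells, 1, 0 and 2 of them Esm1-positive. The shares were then 0.334%, 0.341% and 0.347%, and a difference was not detectable at this depth. Cells with 1 or more Esm1 UMIs made up 3.01%, 4.05% and 4.49% of gated cells and, after thinning, 1.83%, 2.22% and 2.38%. The thinned difference from control was 0.385 percentage points at 6 h (interval −0.0939 to 0.864) and 0.545 for the later time (interval 0.0257 to 1.08), with 1 library per treatment. At 2000 UMIs the later difference was 0.303 (interval −0.118 to 0.739).

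**Figure D4:**
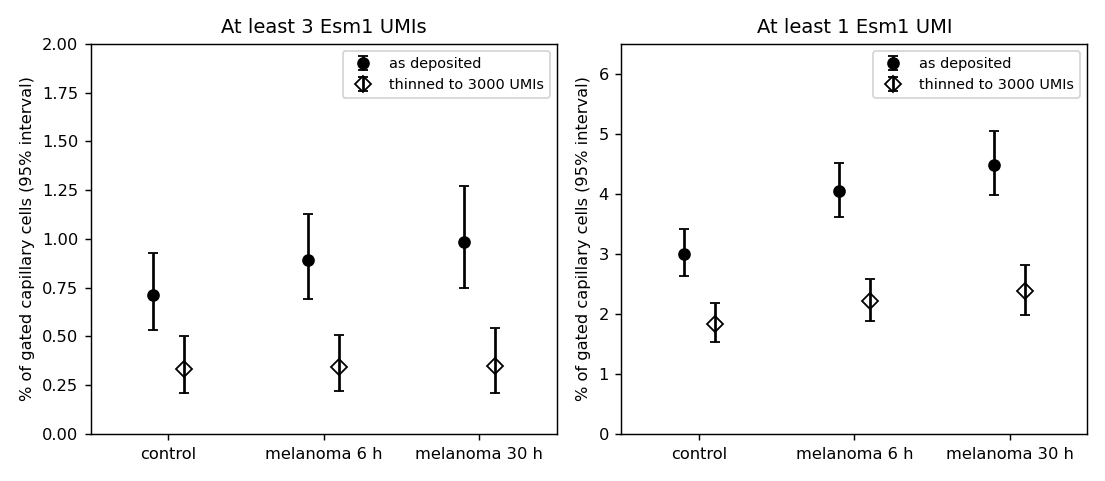
Share of gated general capillary cells with 3 or more, or 1 or more, Esm1 UMIs in each library, as deposited and after thinning to 3000 UMIs, with 95% exact binomial intervals. The share with 3 or more is 0.712%, 0.891% and 0.986% before thinning and 0.334%, 0.341% and 0.347% after it.

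Treatments were compared within the Esm1-positive cells as ratios between single libraries, with no test. Of 6901 genes, 229 (3.32%) were at least 2-fold higher and 175 (2.54%) at least 2-fold lower at 6 h than in control, and 267 (3.87%) and 384 (5.56%) at 30 h, while from 6 h to 30 h 198 (2.87%) and 357 (5.17%) were. In Esm1-zero cells, whose sums are far deeper, the numbers for the same genes were 33 (0.478%) and 8 (0.116%) at 6 h and 52 (0.754%) and 65 (0.942%) at 30 h, and 54 (0.782%) and 91 (1.32%) from 6 h to 30 h. The excess in the Esm1-positive class goes with its low UMI totals, and its part in the counts was not tested. The comparisons with control share the control library.

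The list medians at 6 h were of similar size in both classes for most response lists. At 6 h, the log2 ratio had a median of 0.90 over heat shock genes in Esm1-positive cells and 0.97 in Esm1-zero cells, 0.63 and 0.47 over NF-kB genes, 0.54 and 0.63 over immediate early genes, and 0.45 and 0.43 over the rCap markers, against 0.03 and −0.01 over all genes. Tip cell genes had medians of 0.39 and 0.08, artery genes of −0.19 and 0.03, and interferon genes of −0.11 and 0.20. At 30 h, immediate early genes had medians of −0.84 and −0.43, tip cell genes of 0.49 and 0.23 and artery genes of 0.35 and 0.29, against −0.05 and −0.09 over all genes. Whether the classes responded differently was not tested.

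**Figure D5:**
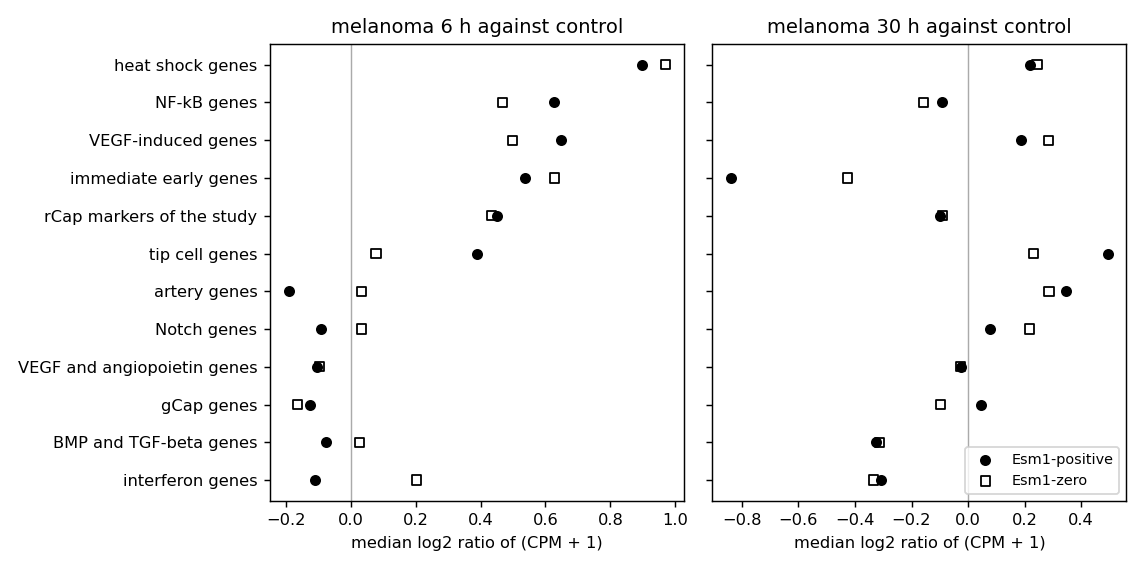
Median log2 ratio to control of each gene list at 6 h and 30 h, in Esm1-positive and in Esm1-zero cells, with 1 library per treatment. At 6 h the heat shock list lies at 0.90 and 0.97 and the rCap list at 0.45 and 0.43 in the 2 classes.

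Among genes the study names, the kinase gene Pim3 stood at 56.0, 133 and 31.1 CPM in Esm1-positive cells of the control, 6 h and 30 h libraries, a log2 ratio of 1.24 at 6 h (95% counting interval of the ratio 0.59 to 1.96) against 0.67 in Esm1-zero cells. The IkB-family gene Bcl3 stood at 15.7, 69.7 and 20.1 CPM (2.08 at 6 h, 0.99 to 3.55, against 1.30), and Inhbb at 15.7, 63.5 and 40.2 CPM (1.95, 0.85 to 3.42, against 2.58). For these genes the 6 h library was the highest in both classes. Vegfa had log2 ratios of 0.84 at 6 h and 0.75 at 30 h, against 0.87 and 0.41. Cxcl12 and Gja5 were highest at 30 h, with log2 ratios of 1.67 and 2.21 against 1.84 and 2.15 in Esm1-zero cells.

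The 8 largest rises at 6 h were of genes with at most 3 control UMIs, and for Sele, Sgcz, Vcam1, Fabp5 and Dkk2 the 6 h UMIs came from 1 to 7 cells. The others had UMIs in at least 16 cells. Phlda1, a gene of growth factor response, went from 0 to 40 UMIs, in 16 cells, at least 9.22-fold higher when the control is set at 3 UMIs (log2 ratio 1.22 in Esm1-zero cells). Hgf, the hepatocyte growth factor, went from 3 UMIs to 37 UMIs in 18 cells (log2 ratio 2.92 against 0.06), and Tnfaip3, an NF-kB inhibitor, from 3 UMIs to 34 UMIs in 16 cells (2.80 against 0.93). At 30 h, Sgcz went from 0 to 29 UMIs in 5 cells and Disp2 from 3 UMIs to 44 UMIs in 26 cells (3.40 against 1.93). The largest falls at 30 h (Chrm3, Rbp7, Rcan2, Nr5a2, Lrg1, 1700025G04Rik, Fabp4 and Dnm3) rested on control UMIs of 1 to 12 cells.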

How the data were processed

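The deposited files were raw UMI counts per gene and barcode for 3 10x Genomics libraries (Pecam1-positive, Ptprc-negative lung cells). The authors made them with Cell Ranger 7.2.0, as the labels and the counts themselves state, on mm10 per the labels. Seurat 4.4.0 is also listed, and the methods name an older Cell Ranger. Library totals were 124085451 to 140601123 UMIs. Intervals cover counting error only.

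UMI counts were summed per library and class. Genes averaging 10 CPM or more across the 6 sums were tested with edgeR 4.0.16 (TMM, quasi-likelihood test, library as a block, Benjamini-Hochberg adjusted p under 0.05; R 4.3.3); DESeq2 1.42.0 was an alternative. Treatment ratios are log2 of (CPM + 1) over genes with at least 20 CPM on average, and their intervals are of the ratio without the added 1. Thinning drew 3000 UMIs per cell without replacement and left out shallower cells. The script was tested on simulated data.

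Named genes were the 5 markers, the 15 largest rises and 10 largest falls among calls of 1 direction in all libraries, up to 4 genes per list, the 8 largest rises and falls per treatment, 7 genes the study or pathway names, and the gate genes. The members and lists were chosen with earlier results of these data known. Of 32285 gene identifiers, 32158 were found in GENCODE M21. Alternatives covered normalization, filters, thresholds, doublets, depth, reference cells and each library left out. Sequences were not used here.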

Additional observations from a re-analysis of the deposited data

Results flagged for a closer look

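In the following genes the Esm1-positive and the Esm1-zero cells went in opposite directions between libraries. Each value is a log2 ratio of (CPM + 1) between single libraries, and the difference between the classes was not tested.

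Cxcr4 was 0.64 higher at 30 h than in control in Esm1-positive cells and had a ratio of −0.20 in Esm1-zero cells. Its Esm1-zero level was near or below that of free RNA, and 1 Esm1-positive cell of the 30 h library held 19 Cxcr4 UMIs. Gzmk had a ratio of −0.72 at 6 h in Esm1-positive cells and 0.28 in Esm1-zero cells, where its level was below 1 CPM. Tgfb2 had −1.66 at 30 h in Esm1-positive and 0.23 in Esm1-zero cells, and Scgb3a1 had −1.56 and 0.23. In the control library 1 cell held 51.1% of the Tgfb2 UMIs and 55.1% of the Scgb3a1 UMIs of Esm1-positive cells. Hgf had 1.88 at 30 h in Esm1-positive cells and −0.86 in Esm1-zero cells.

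At 6 h, Nipal2 had a ratio of 2.26 in Esm1-positive and −0.19 in Esm1-zero cells, Lrg1 had −1.04 and 0.31, and Sgcz had 5.52 and −0.64. Sgcz had 0 control UMIs in Esm1-positive cells, so its ratio was set by the added 1 CPM: it was at least 6.69-fold higher with the control set at 3 UMIs, and 1 cell held 58.6% of its 29 UMIs at 6 h. Fabp4 had −5.22 at 30 h in Esm1-positive cells and 1.05 in Esm1-zero cells. Its difference between Esm1-positive and Esm1-zero cells was 3.53 for control, 3.65 for the 6 h group and −2.74 for the 30 h group. In the control library 1 cell held 95.4% of the Fabp4 UMIs of Esm1-positive cells.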

How the results depend on the processing

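Settings held 53 to 325 Esm1-positive cells. Against 414 genes higher and 357 lower, the numbers were 79 and 39 without the library block, 208 and 200 without artery-marked cells (207 higher when the genes that mark them are left out), 64 and 65 without cells carrying 3 or more UMIs of another cell type (53 Esm1-positive cells left, 8 of them in control; 343 and 292 with 147 left when cells with epithelial UMIs were kept) and 266 and 226 from 5 Esm1 UMIs upward. DESeq2 gave 297 and 230. Leaving out each library gave 232 to 342 and 192 to 279, lowest without the 30 h library. The library block is part of the design because each library holds both classes, and of 135 named genes tested 64 lost their call without it. Lyz2 turned to 0.41 without cells of other types and to 0.24 when cells with epithelial UMIs were kept, an alternative chosen after seeing the data, and in both cells with leukocyte UMIs were removed by construction. Shares in the control, 6 h and 30 h libraries were 1.24%, 1.60% and 1.85% from 2 Esm1 UMIs upward (30 h minus control 0.614 points, interval 0.185 to 1.06), 0.475%, 0.432% and 0.544% from 5 upward (0.0695, −0.181 to 0.334), and 0.486%, 0.599% and 0.530% without artery-marked cells (0.0448, −0.217 to 0.323). Thinned to 2000 UMIs they were 0.174%, 0.200% and 0.189%, and for 1 or more UMIs 1.33%, 1.61% and 1.63%. Genes at least 2-fold higher and lower numbered 701 and 660 at 6 h and 828 and 919 at 30 h with a mean of at least 5 CPM, 382 and 371, and 492 and 688, without artery-marked cells, and 109 and 71, and 140 and 201, from 2 Esm1 UMIs upward. For the markers Cxcr4, Slit3 and Efnb2, every alternative listed here kept the call and its direction. The cause of these changes was not tested.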
